A study of Mus musculus with 11 samples.

Results

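The 10 genes described here encode the subunits of the AP-1 transcription factor and their small MAF partners: Fos, Fosb, Fosl1 and Fosl2 of the FOS family, Jun, Junb and Jund of the JUN family, the related factor Atf3, and the small MAF genes Maff and Mafk. They were taken from the deposited expression table by name, by matching the RefSeq accessions of its rows to gene symbols. Each of the 10 matched a single row of the 23286 in the table, and all 10 were among the 11702 rows with at least 1 FPKM in at least 1 group, the rows compared below. The table comes from polyA RNA-seq of MEPMs, mesenchymal cells cultured from the palate of E13.5 mouse embryos, in which the roof of the mouth is forming. All cells had been grown in 10% serum and then kept overnight in 0.1% serum. In 4 libraries they received nothing further (starved cells), in 4 they were given 30 ng/mL PDGFA for 1 h, and in 3 they were given 50 ng/mL FGF1 together with 1 µg/mL heparin for 1 h. Heparin, a cofactor for FGF binding to its receptors, was given to the FGF1 cells alone according to the labels, so the effects of FGF1 and of heparin cannot be told apart. The labels do not say whether the libraries of a group came from separate cultures or litters.

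AP-1 is a pair of basic leucine zipper (bZIP) proteins that grip each other through the zipper and bind DNA through the basic region. JUN proteins can pair among themselves or, more stably, with FOS proteins, which do not pair with one another. ATF3 pairs with itself and with JUN proteins, and as a pair with itself it is known as a repressor. The small MAF proteins keep the bZIP domain but have no activation domain of their own. They pair with NRF2-type factors to activate, or with BACH factors to repress, genes with antioxidant response elements. FOS and several JUN genes are classical immediate early genes, which growth factors switch on through MAP kinases and pre-existing promoter factors without new protein synthesis. Receptor tyrosine kinases for PDGF and FGF act on palatal mesenchyme in the embryo, where both pathways are needed for a closed palate.

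FPKM scales the fragments of a gene to its transcript length and to the library total, so levels of different genes can be set roughly side by side. The Fosl1 and Jund levels are less certain, since both rows share sequence with genes on the opposite strand and strand handling is not given. The authors gave 1 FPKM per gene and group, with a lower and an upper bound, which stand here in square brackets after the value. With 1 value per group, no SD, n or p-value stands behind any statement. A gene is called higher or lower when the intervals deposited for a pair of groups did not overlap, which describes the authors' group estimates and is no test between replicates. Log2 folds were taken on FPKM + 0.5, a scale that shrinks the folds of weakly expressed genes, while ratios were taken on FPKM itself. Sequencing depth is unknown. Loci are on mm10 as deposited. The bounds were widest with PDGFA: the distance from the middle of the interval to its ends for the 10 genes had a median of 29.0% of the FPKM in starved, 52.0% in PDGFA and 33.9% in FGF1 cells, against 25.6%, 49.6% and 34.7% over all compared rows. Palatal mesenchyme markers such as Col1a2 (2025, 2405 and 1986 FPKM in starved, PDGFA and FGF1 cells), Prrx1 (233, 206 and 228 FPKM) and Twist1 (60.1, 94.4 and 62.4 FPKM) were present in all groups. Others of the 11 listed were low: Pdgfra had 3.87, 3.52 and 2.46 FPKM, Osr2 3.73, 3.81 and 2.94, and Meox2 1.43, 1.06 and 1.02. Of the 10 compared, 6 had a higher value with PDGFA than in starved cells and 3 with FGF1, and 0 were called. The 7 epithelial markers summed to at most 0.840 FPKM in any group. The 6 skeletal muscle markers summed to 21.5 FPKM in starved, 96.5 in PDGFA and 28.7 in FGF1 cells, mostly from Acta1 (17.2, 87.5 and 24.6). All 6 had their highest value with PDGFA, though Acta1 alone was called. Mylpf had 2.49, 5.30 and 2.23 FPKM and Myog 0.687, 1.56 and 0.859. Myod1, which defines that lineage, had 0.0712, 0.258 and 0.0439 FPKM. The part of the muscle signal in the PDGFA values below was not tested. In bulk RNA, a change in the number of cells of a type and a change in RNA per cell cannot be told apart.

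The RefSeq promoter windows (GRCm38.p6, from 250 bases before to 50 after each annotated start) held 9 of the 10 genes, all but Fosl1. They were searched for letters that factors acting on immediate early genes are known to bind, among them the kinase-responsive factor CREB and its ATF relatives. The 140 bases before the start are printed for all 9, whether called or not. Whether the RefSeq starts of Junb and Jund mark their main promoters is uncertain, so positions in these windows are distances from the annotated start only. They lie at chr12:85473750-85473889 (plus strand) for Fos, chr7:19310046-19310185 (minus) for Fosb, chr5:32136332-32136471 (plus) for Fosl2, chr4:95052223-95052362 (minus) for Jun, chr8:84978749-84978888 (minus) for Junb, chr8:70697599-70697738 (plus) for Jund, chr1:191183334-191183473 (minus) for Atf3, chr15:79347380-79347519 (plus) for Maff and chr5:139791396-139791535 (plus) for Mafk. Capitals mark matches to the motifs described in the next paragraph, on either strand.
Fos: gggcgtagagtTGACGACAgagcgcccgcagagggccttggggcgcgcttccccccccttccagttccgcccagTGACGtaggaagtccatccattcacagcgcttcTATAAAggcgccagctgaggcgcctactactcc
Fosb: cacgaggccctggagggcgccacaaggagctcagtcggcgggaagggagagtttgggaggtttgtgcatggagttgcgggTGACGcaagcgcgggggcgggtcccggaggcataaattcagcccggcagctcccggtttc
Fosl2: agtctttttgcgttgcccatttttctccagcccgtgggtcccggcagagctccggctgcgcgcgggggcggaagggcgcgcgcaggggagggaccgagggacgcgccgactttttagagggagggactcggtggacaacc
Jun: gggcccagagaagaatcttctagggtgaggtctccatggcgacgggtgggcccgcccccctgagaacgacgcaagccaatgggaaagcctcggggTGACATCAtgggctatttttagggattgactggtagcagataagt
Junb: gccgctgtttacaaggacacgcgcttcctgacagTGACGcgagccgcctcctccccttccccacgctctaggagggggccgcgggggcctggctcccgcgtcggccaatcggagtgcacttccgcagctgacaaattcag
Jund: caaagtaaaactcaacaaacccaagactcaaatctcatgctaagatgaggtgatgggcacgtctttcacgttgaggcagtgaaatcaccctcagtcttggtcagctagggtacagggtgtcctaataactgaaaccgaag
Atf3: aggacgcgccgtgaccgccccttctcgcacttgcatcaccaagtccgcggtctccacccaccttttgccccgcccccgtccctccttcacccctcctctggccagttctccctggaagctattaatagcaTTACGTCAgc
Maff: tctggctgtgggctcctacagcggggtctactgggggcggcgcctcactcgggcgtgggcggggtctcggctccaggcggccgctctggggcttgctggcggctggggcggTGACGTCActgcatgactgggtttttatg
Mafk: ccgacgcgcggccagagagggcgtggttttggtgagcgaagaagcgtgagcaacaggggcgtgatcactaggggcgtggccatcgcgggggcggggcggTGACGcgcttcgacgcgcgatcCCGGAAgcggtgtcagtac

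The cAMP response element (CRE) TGACGTCA, searched on both strands, stood in the Maff window 29 bases before the start, and in 1.79% of all 32851 windows. Its core TGACG, which also lies within every full CRE, was found in the windows of 6 of the 9 genes (Fos, Fosb, Junb, Atf3, Maff and Mafk), and in 20.8% of all windows. A CRE with at most 1 mismatch, a search added after the sequences had been seen, was found in 4 of the 9: TGACATCA began 45 bases before the start of Jun, TTACGTCA 10 bases before that of Atf3, TGACGACA 129 bases before that of Fos, and Maff had the full site. Of all windows 12.5% held such a match. The Fos, Fosb and Junb cores nearest to the start began 66, 60 and 106 bases before it. The TATA box letters TATAAA (on the gene's strand, in 8.32% of windows, also searched after the sequences had been seen) began 33 bases before the start of Fos and at the annotated start itself in Junb. The ETS core CCGGAA was in the windows of Maff and Mafk and in 14.9% of all windows, and the MAF motif core TGCTGA in that of Mafk and in 19.5%. The AP-1 site, TGACTCA or TGAGTCA (5.20% of windows), and the CArG box bound by SRF (1.63%) were in none of the 9 genes' windows. Such a blank says only that the letters are not in this window, and a match is a run of letters, not a shown binding site. Maff has 3 annotated windows, and the one printed begins its transcript 158 bases before the start of the deposited Maff row. Every motif counted for Maff lay in that window. Another, with its start at chr15:79348402, held TGACATCA 45 bases before that start and the core, on the opposite strand, 122 bases before it. The remaining Maff window held no match. Fosl2, called with FGF1, and Jund, called with neither ligand, held none of the motifs searched, and Mafk, called with neither, held 3 of them.

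In starved cells the 10 genes covered a wide range of levels. Jund, the JUN subunit usually described as constitutive, was the most abundant with 45.8 FPKM [35.2 to 55.8]. Fosl2, which encodes FRA2, followed with 30.5 FPKM [23.9 to 37.0], then Jun with 29.9 [23.1 to 36.8] and Mafk with 26.8 [20.5 to 32.8]. The intervals of these 4 neighbours overlapped one by one. A gap then separated Mafk from Junb, at 12.7 FPKM [8.98 to 16.2]. Below it came Maff with 9.73 [6.75 to 12.6], Atf3 with 8.37 [5.88 to 10.8], Fosl1 with 3.70 [0.818 to 6.57] and Fos with 2.62 [1.69 to 3.56], each overlapping the next. Fosb lay apart from the rest, at 0.269 FPKM [0.131 to 0.403].

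**Figure D1:**
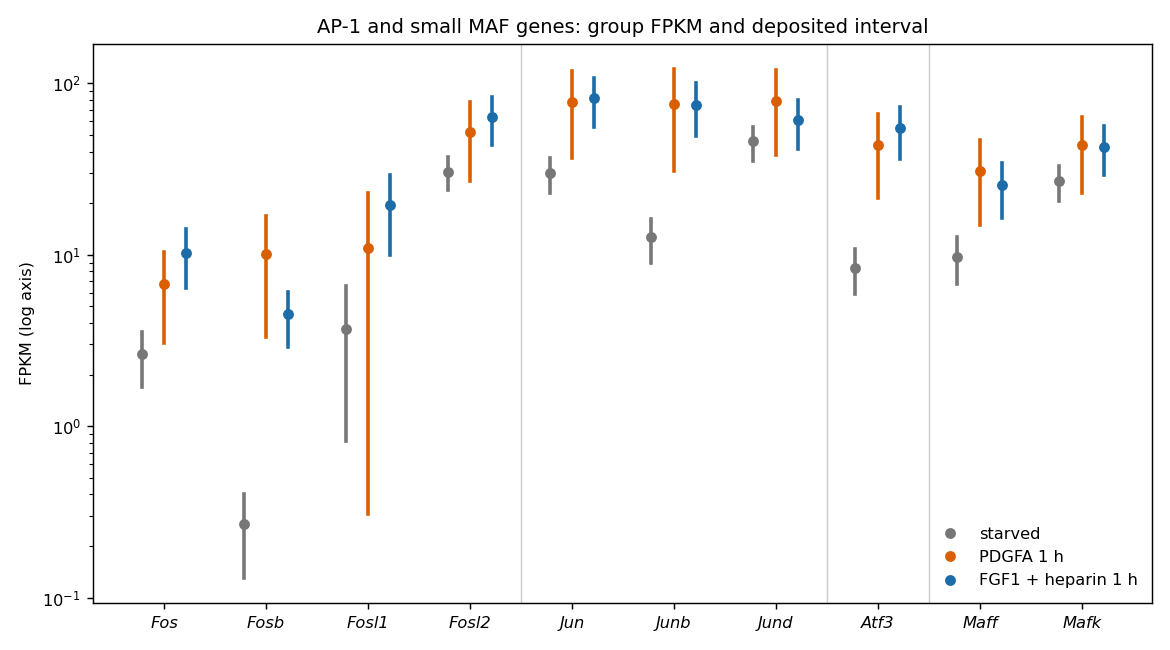
FPKM (log axis) of the 10 genes in starved cells (grey), after 1 h of PDGFA (orange) and after 1 h of FGF1 with heparin (blue). Points are the authors' group values and bars their deposited intervals; every PDGFA and FGF1 point stands above the starved point of its gene, and the PDGFA line of Fosl1 is the longest on this axis.

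With PDGFA, 5 of the 10 genes were called higher than in starved cells (Fosb, Junb, Atf3, Maff and Jun), where 0.308% of all compared rows were called higher. With FGF1, 8 of the 10 were called higher, all but Jund and Mafk, where 0.538% of all compared rows were. The values of all 10 exceeded those of starved cells under either ligand, against 49.3% of compared rows with PDGFA and 56.0% with FGF1. The median log2 fold of the 10 genes was 1.40 with PDGFA (all rows −0.00287) and 1.61 with FGF1 (all rows 0.02). Both comparisons use the same starved cells, so their shared direction is not independent. The 10 genes were chosen with earlier results of these data known, so their shares set beside all rows are a description and no test.

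Fosb (chr7:19302696-19310045), whose protein resembles FOS and has a known short form made by splicing, had the largest log2 fold of the 10 with PDGFA. It had 0.269 FPKM [0.131 to 0.403] in starved cells, 10.1 [3.31 to 16.9] with PDGFA and 4.51 [2.91 to 6.08] with FGF1. Both stimulated intervals lay far above the starved one: the lowest ratio that the bounds allow was 8.20 with PDGFA and 7.23 with FGF1. The log2 folds were 3.78 and 2.70, ranks 84 and 12 from the top among all 11702 compared rows, and 9 and 8 among the 11510 with transcripts of at least 200 nt. The FGF1 fold of so low a gene depends on the pseudocount: with 1 in place of 0.5 it was 2.12, below those of Atf3 (2.57), Junb (2.47) and Fosl1 (2.13). With 0.1 it was 3.64, above those of Atf3 (2.70), Junb (2.56) and Fosl1 (2.37). The FGF1 ratio of Fosb on FPKM itself was 16.7. The PDGFA value was the higher of the pair, but the intervals overlapped (log2 fold of FGF1 against PDGFA −1.08).

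Fos (chr12:85473901-85477270), the founding member of the family, remained among the least abundant of the 10 genes at this time point. It had 2.62 FPKM [1.69 to 3.56] in starved cells, 6.76 [3.07 to 10.4] with PDGFA and 10.2 [6.44 to 14.1] with FGF1. The FGF1 interval lay above the starved one, a 3.90-fold difference, while the PDGFA interval overlapped it, at a ratio of 2.57. By the alternative rule that asks only for a difference larger than the combined width of the intervals (the root of the summed squares of their distances from middle to end), Fos was called with PDGFA as well. FOS mRNA is known to appear and decay quickly, and 1 h is the single time measured here.

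Fosl1, the FRA1 gene, had 3.70 FPKM [0.818 to 6.57] in starved cells, 10.9 [0.307 to 23.0] with PDGFA and 19.5 [9.99 to 29.0] with FGF1. It was called with FGF1 (5.28-fold), and with PDGFA its interval took in the whole starved interval (2.95-fold). The row is uncertain. Of the 31-base words of the Fosl1 transcript, 60.4% also occur, on the opposite strand, in Ccdc85b, a gene that overlaps its exons, and the deposited locus of both rows is the same, chr19:5447698-5457563. Whether reads were counted by strand is not given in the sources used here. Ccdc85b had 6.52 FPKM [4.60 to 8.43] in starved, 11.4 [4.40 to 18.4] in PDGFA and 9.04 [5.05 to 13.0] in FGF1 cells, with overlapping intervals.

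Fosl2 (chr5:32136472-32157839) was the main FOS-family transcript in every group. It had 30.5 FPKM [23.9 to 37.0] in starved cells, 52.3 [26.8 to 77.8] with PDGFA and 63.6 [43.7 to 83.5] with FGF1. The FGF1 interval lay above the starved one (2.09-fold, lowest ratio allowed by the bounds 1.18), and the PDGFA interval did not (1.72-fold).

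Among the JUN genes, all of them single-exon genes in GENCODE M21, Junb (chr8:84976909-84978748) stood out. Its protein is a weaker activator than JUN and is known to oppose it at some sites. Junb had 12.7 FPKM [8.98 to 16.2] in starved cells, 75.6 [30.7 to 121] with PDGFA and 75.1 [49.2 to 101] with FGF1. The 2 ligands gave almost the same value, and both intervals lay wholly above the starved one. The ratios were 5.96 and 5.92, and the bounds allow no ratio below 1.89 and 3.03.

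Jun (chr4:95049036-95052222) had 29.9 FPKM [23.1 to 36.8] in starved cells, 77.8 [36.9 to 119] with PDGFA and 81.8 [55.7 to 108] with FGF1. It was called with both ligands, 2.60-fold and 2.73-fold, but the PDGFA call is marginal: only 0.0717 FPKM separated the intervals, the narrowest margin of the 13 calls among these genes and ligands. It ended when a trend of the folds on base composition, length and level was removed (log2 fold 1.36 before and 1.19 after). An antisense gene, Junos, overlaps 232 nt of Jun.

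Jund (chr8:70697739-70700616) had 45.8 FPKM [35.2 to 55.8] in starved cells, 78.9 [38.2 to 119.6] with PDGFA and 60.7 [41.4 to 79.9] with FGF1. All 3 intervals overlapped, and Jund was called with neither ligand. Its log2 fold with FGF1, 0.40, was the lowest of the 10 genes. Jund shares sequence too: 50.1% of the 31-base words of its GENCODE M21 transcript lie, on the opposite strand, in the antisense gene Gm11175. That transcript has 1668 nt and is shorter than the deposited locus, so the share over the whole row is not known.

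Atf3 (chr1:191170297-191183333), a stress-responsive bZIP gene, had 8.37 FPKM [5.88 to 10.8] in starved cells, 43.8 [21.3 to 66.3] with PDGFA and 54.8 [36.3 to 72.7] with FGF1. Both stimulated intervals were clear of the starved one, at 5.23-fold and 6.55-fold, with lowest ratios of 1.97 and 3.35. After Fosb and Junb it had the third largest log2 fold with PDGFA (2.32). Its log2 fold with FGF1 was 2.64, below that of Fosb with a pseudocount of 0.5 (and with 0.1) and above it with 1.

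The small MAF genes differed from each other. Maff (chr15:79347678-79359076) had 9.73 FPKM [6.75 to 12.6] in starved cells, 30.7 [14.9 to 46.5] with PDGFA and 25.4 [16.4 to 34.3] with FGF1. It was called with both, 3.16-fold and 2.61-fold, and the lowest ratios allowed by the bounds were 1.18 and 1.30. Mafk (chr5:139791536-139802652) had 26.8 FPKM [20.5 to 32.8], 43.4 [22.9 to 64.0] and 42.8 [29.3 to 56.1] in the same order. Its intervals overlapped with both ligands, at ratios of 1.62 and 1.59, and by the combined-width rule it was called with FGF1. The remaining small MAF gene, Mafg, named here after its values were seen, had 24.8 FPKM [17.5 to 31.1], 31.3 [16.5 to 46.2] and 29.1 [18.7 to 39.5], with overlapping intervals.

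**Figure D2:**
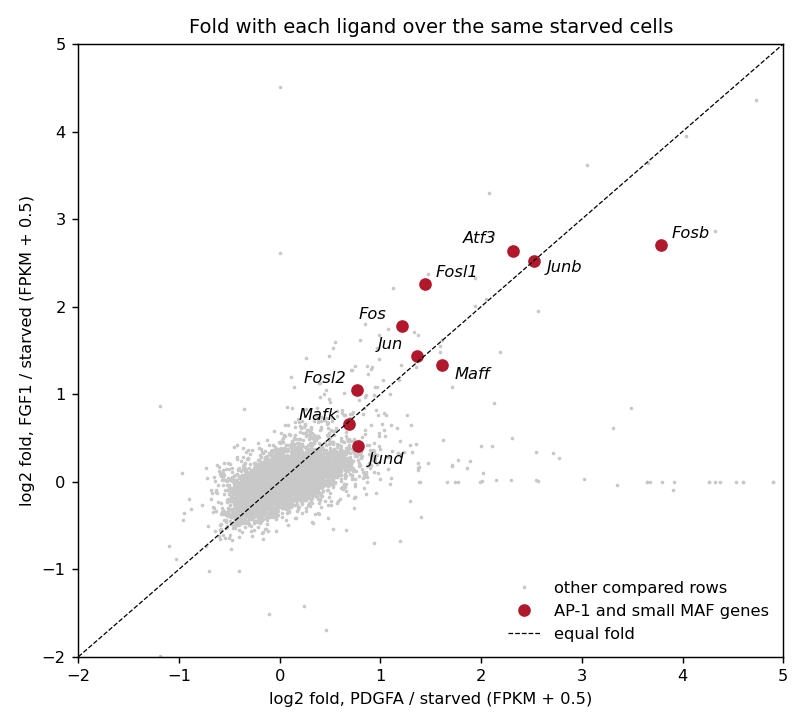
Log2 fold (FPKM + 0.5) with PDGFA (x axis) and with FGF1 and heparin (y axis) over the same starved cells, for the 10 genes (red) and the other compared rows (grey); 82 rows lie outside the axes and the dashed line marks equal folds. Fosb lies right of the line at 3.78 and 2.70, Fosl1 left of it at 1.44 and 2.25, and Junb on it at 2.53 and 2.52.

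With the ligands set against each other, 0 of the 10 genes were called higher and 0 lower with FGF1 than with PDGFA. Of all compared rows 0.0256% were called higher and 0.094% lower, so these counts do not set the 10 genes apart. The combined-width rule also called 0 in either direction. The values of 5 genes were higher with FGF1 (Fos, Fosl1, Fosl2, Jun and Atf3) and those of the other 5 higher with PDGFA. The log2 folds ran from −1.08 for Fosb to 0.81 for Fosl1, with a median of 0.03 (all rows 0.01). Across the 11510 rows with transcripts of at least 200 nt, the FGF1 against PDGFA fold fell with transcript GC content (Spearman −0.598). With a trend on GC content, length and level removed, 7 of the 10 genes were higher with FGF1 and the median was 0.14. Junb (0.14) and Mafk (0.04) moved from below to above 0, and 0 genes were called either way. The deposited bounds leave room for sizeable differences either way: the ratio of FGF1 to PDGFA could lie between 0.173 and 1.84 for Fosb, 0.618 and 4.57 for Fos, and 0.408 and 3.29 for Junb. That a gene was called with FGF1 and not with PDGFA (Fos, Fosl1 and Fosl2) therefore does not show that the ligands differ. PDGFA and FGF1 were given at different doses.

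The makeup of the families is given from the group values, with no test of the shares. The 4 FOS-family genes summed to 37.1 FPKM in starved, 80.1 in PDGFA and 97.9 in FGF1 cells, and with all bounds at their lowest or highest the sums would be 26.6 to 47.6, 33.5 to 128 and 63.0 to 133. The range with FGF1 lay above the starved one, and that with PDGFA overlapped it. Fosl2 made up 82.2% of the starved sum, 65.3% with PDGFA and 65.0% with FGF1. Fosb made up 0.727%, 12.6% and 4.60% of the sum in starved, PDGFA and FGF1 cells, and Fosl1 9.98%, 13.6% and 19.9%. The sums of the 3 JUN genes were 88.4 FPKM [67.2 to 109 from the summed bounds], 232 [106 to 359] and 218 [146 to 289], again apart from starved cells with FGF1 and overlapping them with PDGFA. Jund held 51.8% of the starved JUN sum, 34.0% with PDGFA and 27.9% with FGF1, while Junb held 14.4%, 32.5% and 34.5%. The bounds of single genes are wide enough for the Jund, Junb and Fosl2 shares to overlap the starved ones with either ligand. In stimulated cells the intervals of the 3 JUN transcripts all overlapped. JUN-family FPKM exceeded FOS-family FPKM 2.39-fold in starved, 2.90-fold in PDGFA and 2.22-fold in FGF1 cells. These are transcript levels, not proteins or pairs. The Jund and Fosl1 rows in these sums share sequence with genes on the opposite strand.

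**Figure D3:**
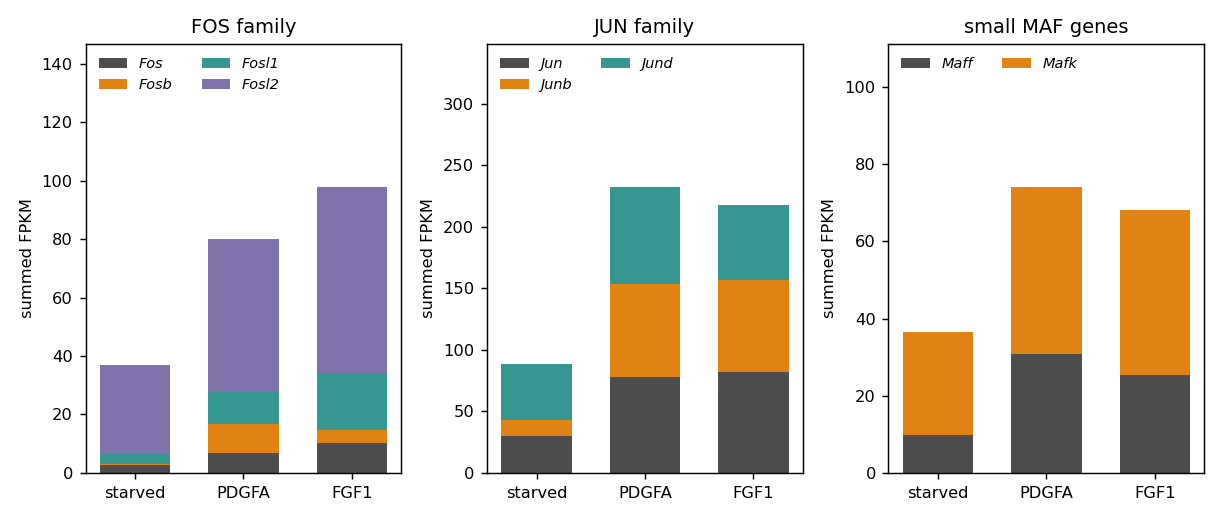
Summed FPKM (y axis, from 0, a separate scale per panel) in starved, PDGFA and FGF1 cells, with each gene's part coloured. Panels show the FOS family, the JUN family and the small MAF genes Maff and Mafk, without Mafg. Fosl2 and Mafk are the largest parts of their bars in all groups, and the Junb part is 12.7 FPKM in starved, 75.6 in PDGFA and 75.1 in FGF1 cells.

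Base composition moved with the PDGFA values. Across 11510 rows with transcripts of at least 200 nt, the PDGFA log2 fold rose with transcript GC content (Spearman 0.610, across genes, which are not independent), whereas the correlation was 0.182 for FGF1. All 10 genes lie in the GC-richer part of those rows. Jund (67.1% GC) lay above 99.9% of those rows, Junb (62.6%) above 98.7%, and Fos, at the low end of the 10, had 51.9%. The Jund GC content and length are those of a GENCODE M21 transcript shorter than its deposited locus, and its trend correction rests on them. Once a fitted dependence on GC content, transcript length and level had been taken out, the PDGFA log2 fold of Jund went from 0.78 to 0.35 and that of Junb from 2.53 to 2.22, while Atf3 (2.32 and 2.30) and Fos (1.22 and 1.25) hardly moved. All 10 folds stayed above 0 for both ligands, with medians of 1.27 for PDGFA and 1.56 for FGF1, and the Jun call with PDGFA was the single call among the 10 genes that ended.

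**Figure D4:**
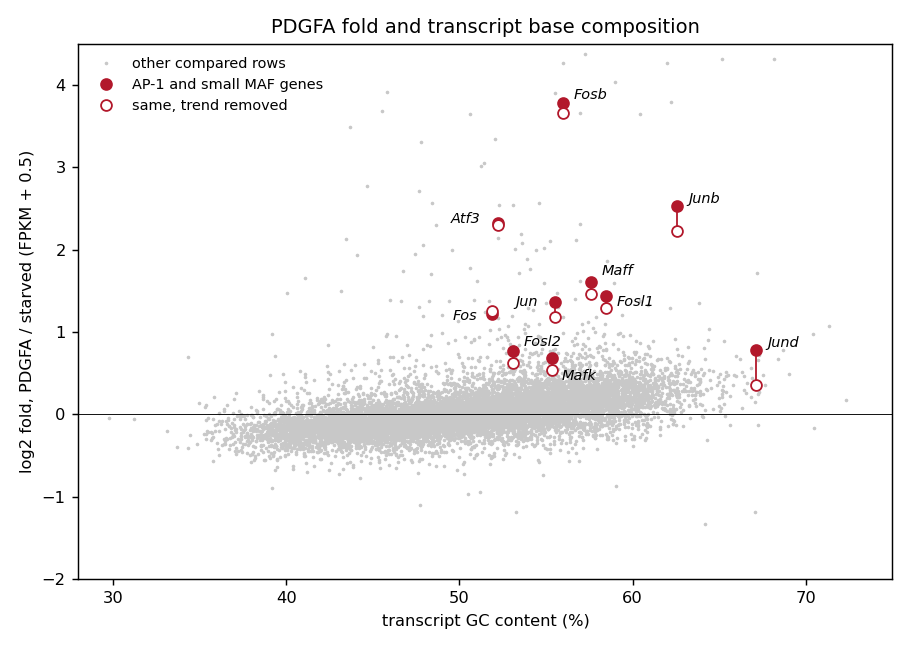
PDGFA log2 fold (y axis, FPKM + 0.5) against transcript GC content (x axis, %) for the compared rows (grey; 79 outside the axes and 76 without a GC value are not drawn) and the 10 genes (filled red), joined to the value with the trend removed (open red). The line is longest for Jund, from 0.78 to 0.35.

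Of 30 other bZIP genes listed, 29 were matched and 23 compared. With PDGFA 1 was called higher, where 0.308% of all compared rows were, and with FGF1 1, where 0.538% were. In both cases the gene was Cebpb, which encodes a C/EBP factor. It had 12.4 FPKM [8.41 to 16.2] in starved cells, 41.8 [17.2 to 66.3] with PDGFA and 26.7 [16.5 to 36.6] with FGF1. The median log2 fold of the 23 was 0.18 with PDGFA and 0.11 with FGF1. The 4 most abundant of the list in starved cells had overlapping intervals: Atf4 (272, 248 and 271 FPKM in starved, PDGFA and FGF1 cells), Atf5 (236, 291 and 255), Nfe2l1 (166, 160 and 168) and Ddit3 (106, 110 and 123). Intervals also overlapped for Jdp2, whose protein represses AP-1 (46.1, 56.0 and 48.8 FPKM), and for Nfe2l2, which encodes the small MAF partner NRF2 (37.0, 35.7 and 47.6). These 6 were named after their values were seen.

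Of 22 kinases and promoter factors known to act on the FOS and JUN genes, 0 were called with either ligand. Since 0.308% of all compared rows were called higher with PDGFA and 0.538% with FGF1, this count does not set the list apart. Its median log2 folds were 0.04 and 0.09. The ERK gene Mapk3 (59.2, 72.6 and 66.5 FPKM in starved, PDGFA and FGF1 cells) and the MEK genes Map2k1 (50.3, 56.5 and 53.4) and Map2k2 (45.7, 72.0 and 52.1) all had overlapping intervals. Srf, which encodes the serum response factor and was named after its values were seen, had 28.2 FPKM [22.1 to 34.3] in starved cells, 58.4 [27.5 to 89.3] with PDGFA and 42.6 [29.2 to 55.8] with FGF1.

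Genes often cited as AP-1 targets were called with FGF1 in 3 of 14 compared cases, where 0.538% of all compared rows were called higher, and in 0 of 14 with PDGFA, where 0.308% were. Among them were Hbegf, which encodes an EGF-receptor ligand, and the cytokine gene Lif. Hbegf had 12.0 FPKM [8.80 to 15.1] in starved cells, 26.8 [14.0 to 39.6] with PDGFA and 57.3 [38.9 to 75.6] with FGF1. Lif had 7.21 [5.49 to 8.94], 9.70 [5.02 to 14.4] and 16.4 [11.2 to 21.5]. Between the ligands, 0 of the 14 were called. The median log2 fold was 0.27 with PDGFA and 0.40 with FGF1. Mmp3, Mmp10, Mmp13 and Il6 were below 1 FPKM in every group.

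Of 13 antioxidant response element genes, the class that small MAF pairs act on, 0 were called with either ligand. The shares of all compared rows called higher were 0.308% with PDGFA and 0.538% with FGF1. The median log2 fold of the 13 was −0.05 with PDGFA and 0.11 with FGF1. Above the starved value were 3 of 13 with PDGFA (49.3% of all compared rows) and 12 of 13 with FGF1 (56.0%). With the trend on GC content, length and level removed, the medians were 0.02 and 0.09. The ferritin genes Ftl1 (909, 855 and 979 FPKM) and Fth1 (322, 309 and 383), the peroxiredoxin gene Prdx1 (111, 102 and 120) and the thioredoxin reductase gene Txnrd1 (69.6, 81.0 and 88.2) all had overlapping intervals.

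**Figure D5:**
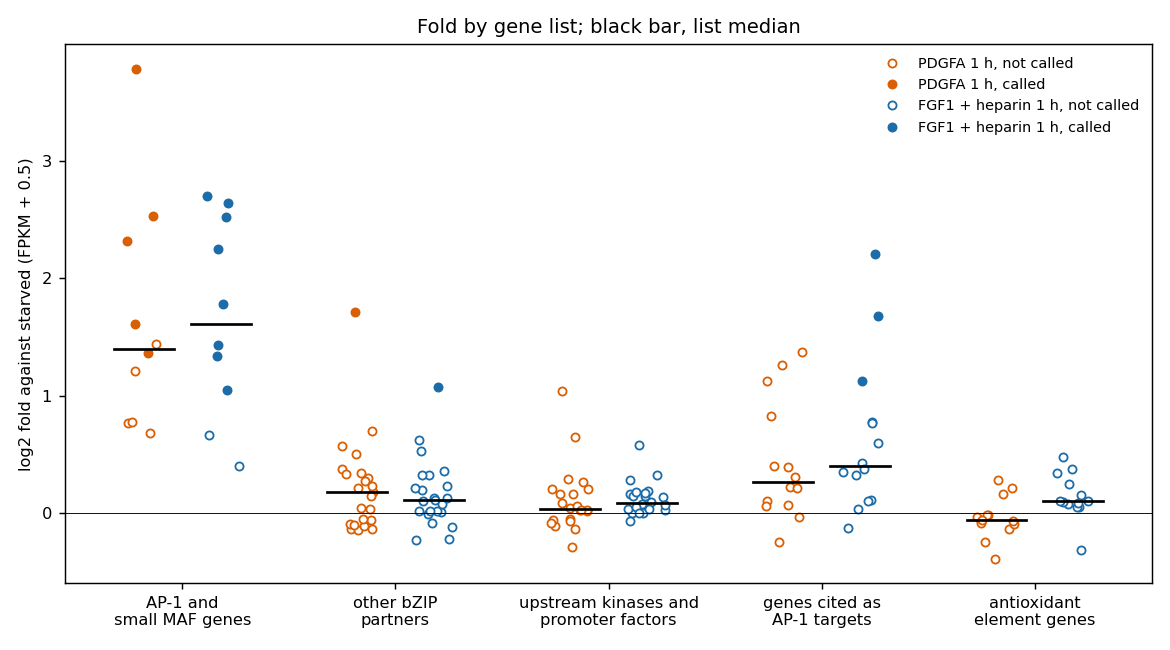
Log2 fold against starved cells (y axis, FPKM + 0.5) of the 10 genes and of the compared genes of the other 4 lists drawn (cell type markers are not drawn), with PDGFA (orange) and with FGF1 and heparin (blue); filled points are called, open points are not, and black bars are medians. The medians of the 10 genes are 1.40 and 1.61, and those of the other 4 lists drawn lie between −0.05 and 0.40.

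For each gene the rows with the nearest pair of log2 folds were found, by Euclidean distance over the PDGFA and FGF1 folds, which rest on 3 group values and share the starved cells. Junb and Atf3 were each other's nearest row (distance 0.242), and Dusp5, an ERK phosphatase gene, was next for both. The 2 nearest to Fos were Ier2 (0.134) and Trib1 (0.149), those to Fosl1 the prostaglandin synthase gene Ptgs2 (0.121) and Hbegf (0.316), and those to Jun Ier5l (0.124) and Nab2 (0.185). Nearest to Maff were the MAP kinase phosphatase gene Dusp1 (0.148) and Phlda1 (0.217). Fosb was farther from its neighbours, Egr4 (0.559) and the orphan receptor gene Nr4a1 (0.951). Fosl2 was nearest to Arid5a (0.106) and Sertad1 (0.115), Jund to Flnc (0.0300) and Stk32c (0.0340), and Mafk to Rhob (0.0210) and Klf9 (0.0396). Stk32c (0.483, 1.15 and 0.807 FPKM in starved, PDGFA and FGF1 cells) and Egr4 (0.0878, 11.2 and 3.76) are so low in starved cells that the 0.5 added to FPKM weighs on their folds.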

How the data were processed

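The genes and lists were chosen with earlier results of these data known. The submitters' processing notes name CASAVA, TopHat, Cuffdiff and build mm10. Versions, roles, settings, annotation and strand handling: not given in the sources used here. What the authors deposited is FPKM, 1 per row and group, from 4, 4 and 3 libraries, with lower and upper bounds whose confidence level is not stated. Because FPKM is relative to the library total, a large change in some genes moves the values of the rest.

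Names came from RefSeq's gene table of GRCm38.p6, the build of mm10 (22992 rows), or GENCODE M21 (126 rows); 168 rows had no name. Row starts in the file count from 0 and are printed from 1. Rows needed at least 1 FPKM in a group and no failed estimate (2 rows, Col1a1 and Thbs1, failed). A call needed intervals that did not overlap and each FPKM inside its own interval, across all rows. The planned limma fit needs values per library and was not run, nor was a comparison of protein sequences. Transcript GC and length came from GENCODE M21 (99.4% of compared rows), and the trend was a robust (Huber) cubic fit on GC, log2 of length and mean log2 level. The call rule was run on simulated data with large imposed changes and noise well inside the intervals. The trend step was run on an imposed GC trend. These runs checked the code and give no error rates for the 10 genes. All 10 genes are named; other lists name called genes or else the 4 most abundant in starved cells, and exceptions are marked; some genes of these lists are not reported here. Of the lists for other cell types, endothelial markers summed to at most 4.28 FPKM in any group, blood markers to at most 0.272 and neural and glial markers to at most 51.2, mostly Tubb3. The fit used statsmodels 0.14.6 and the figures matplotlib 3.10.9, on Python 3.11.15 with pandas 2.3.3, numpy 2.4.6 and scipy 1.17.1.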

Additional observations from a re-analysis of the deposited data

How the results depend on the processing

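No paired analysis was possible because the table holds 1 value per group; for the same reason no replicate could be left out. The counts of the 10 genes called stayed within 1.5 times of those reported under every alternative run for them: no minimum FPKM, a minimum of 5 FPKM, median-of-ratios scaling, a 2-fold minimum, the combined-width rule and the trend removed. Over all rows, the combined-width rule gave 113 rows higher and 11 lower with PDGFA, 105 higher and 27 lower with FGF1, and 15 higher and 74 lower with FGF1 against PDGFA. With the trend removed, 7 rows were lower with PDGFA and 9 higher with FGF1 than with PDGFA. Without a minimum FPKM 1 row was lower with PDGFA; at a minimum of 5, 1 row was lower with FGF1 than in starved cells and 5 lower with FGF1 than with PDGFA. A 2-fold minimum left 1 row lower with FGF1, and median-of-ratios scaling 1 row higher with FGF1 than with PDGFA. Counting Atf3 with the FOS family made its FGF1 sum 153 FPKM. The causes were not tested. The width of the PDGFA intervals limits all comparisons with that group.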
